A study of Mus musculus with 6 samples.

Results

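The genes described here write, recognise or stabilise methylation of lysine 9 on histone H3 (H3K9), the mark of heterochromatin, in satellite cells, the resident stem cells that repair skeletal muscle. They were taken as a fixed list of 10 genes: the methyltransferases Suv39h1, Suv39h2, Setdb1, Ehmt1 and Ehmt2, the heterochromatin protein 1 (HP1) genes Cbx1, Cbx3 and Cbx5, the corepressor Trim28 and the histone deacetylase Hdac3. All 10 were found among the 39059 genes counted and passed the filter on low counts. Satellite cells had been isolated from hind-limb muscle of C57BL/6J mice at postnatal day 19 and sorted by flow cytometry. The 3 homozygous libraries came from mice with genotype Lmna Δ8-11 -/-, and the 3 wild-type libraries from Lmna Δ8-11 +/+ mice. Lmna encodes the nuclear lamins A and C. The deletion is carried in every cell of the animal, mice homozygous for it are known to develop muscular dystrophy and to die young, and the allele is known to leave a truncated lamin A product. The labels speak of 3 mice for each condition but do not say which animal gave which library, so p-values measure the spread between these libraries, which may in part be technical.

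H3K9 methylation is written in steps. Ehmt1 (GLP) and Ehmt2 (G9a) form a dimer that places mono- and dimethylation in euchromatin, Setdb1 places trimethylation at retroelements and other targets to which zinc-finger proteins recruit it through Trim28 (KAP1), and Suv39h1 and Suv39h2 place trimethylation at pericentric repeats. HP1 proteins bind the methylated lysine through a chromodomain and bind partner proteins through a chromoshadow domain. Much of this heterochromatin lies against the nuclear lamina, where the lamin B receptor and the lamins hold it. Hdac3 removes acetyl groups from histones within a corepressor complex and is also tethered at the lamina. In muscle, Suv39h1 and HP1 proteins are known to bind MyoD and to restrain the differentiation of myoblasts.

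Each library held 6613636 to 9552751 reads assigned to genes. Lmna, the targeted gene, stood at 436, 375 and 451 CPM (a gene's reads scaled to a library total common to all libraries) in homozygous replicates 1, 2 and 3. In wild-type replicates 1, 2 and 3 it stood at 842, 939 and 1057 CPM, and every homozygous value lay below every wild-type value (log2 fold change -1.17, SE 0.14, edgeR quasi-likelihood adjusted p = 0.0010). The count covers undeleted exons too, so the labels are checked only partly by it. The 8 satellite cell markers together stood at 1050 to 1446 CPM in homozygous libraries and at 1859 to 1892 CPM in wild-type ones. Of these, 6 fell and 0 rose, where 11.5% of all genes tested fell. A large part of the sum is Sdc4, at 664, 705 and 580 CPM in homozygous and 689, 723 and 845 CPM in wild-type replicates (edgeR adjusted p = 0.308). All 8 had a negative log2 fold change, with a median of -1.31. Other cell types were represented in both genotypes. The 5 smooth muscle and pericyte markers summed to 9283 to 9938 CPM in homozygous and 9063 to 12854 in wild-type libraries, and the 5 fibro-adipogenic markers to 1119 to 1370 and 1830 to 2033 CPM. Schwann cell markers summed to 2832 to 3797 and 3511 to 4432 CPM, endothelial markers to 257 to 464 and 317 to 504 CPM, macrophage markers to 31.7 to 47.8 and 28.5 to 54.3 CPM, and erythroid markers to 216 to 879 and 889 to 1580 CPM. None of the markers was at 0 over the 6 libraries. The part of these cell types in the results below was not tested, and in RNA of a whole sorted population fewer cells of a type and less RNA per cell cannot be told apart. Proliferation genes were mostly lower in homozygous libraries: of 19 tested, 12 fell and 0 rose, with a median log2 fold change of -1.71. Of all genes tested, 11.5% fell. Mki67, which marks cycling cells, stood at 8.95, 11.98 and 9.16 CPM in homozygous replicates 1, 2 and 3 and at 50.7, 141 and 43.2 CPM in the wild-type replicates, highest in replicate 2. The sum over the 20 genes was 359 to 423 CPM in homozygous libraries and 392, 855 and 402 CPM in wild-type replicates 1, 2 and 3. A large part of that sum in most libraries is Pcna, a replication clamp, at 289, 218 and 258 CPM in homozygous and 153, 212 and 195 CPM in wild-type replicates (adjusted p = 0.0644). Mki67 and Pcna were named after their values were seen.

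Trim28 was the most abundant of the 10 transcripts and Suv39h2 the least, compared per length as CPM per kilobase of annotated exon. In wild-type libraries Trim28 stood at 36.1 ± 1.53 CPM per kb (SD, n = 3), above 92.8% of the 14099 genes tested. Cbx5, which encodes HP1α, followed at 17.1 ± 1.89 and Ehmt2 at 13.9 ± 1.18 CPM per kb. The libraries of these 3 genes did not overlap in level. Cbx1 (HP1β) stood at 11.0 ± 1.44, Cbx3 (HP1γ) at 9.67 ± 1.38 and Hdac3 at 9.47 ± 0.47 CPM per kb, and the libraries of Cbx3 overlapped in level with those of both Cbx1 and Hdac3. Setdb1 at 7.08 ± 0.35 and Ehmt1 at 6.83 ± 0.53 CPM per kb overlapped as well. Suv39h1 stood at 5.30 ± 0.85 CPM per kb, and Suv39h2 at 1.81 ± 0.54 CPM per kb, below Suv39h1 in all libraries and above only 25.8% of genes tested. In homozygous libraries Trim28 and Suv39h2 were again first and last, at 37.7 ± 1.72 and 1.32 ± 0.04 CPM per kb. Suv39h1 stood at 8.36 ± 0.92 CPM per kb there, beside Ehmt1 at 8.53 ± 0.85. The mean of Suv39h1 was above that of Cbx3, at 7.55 ± 0.13, but the libraries of Suv39h1 and Cbx3 overlapped in level. Reads of Cbx3 are less certain than the rest, because the annotation names 8 Cbx3 pseudogenes and reads with more than 1 alignment were not assigned to genes.

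**Figure D1:**
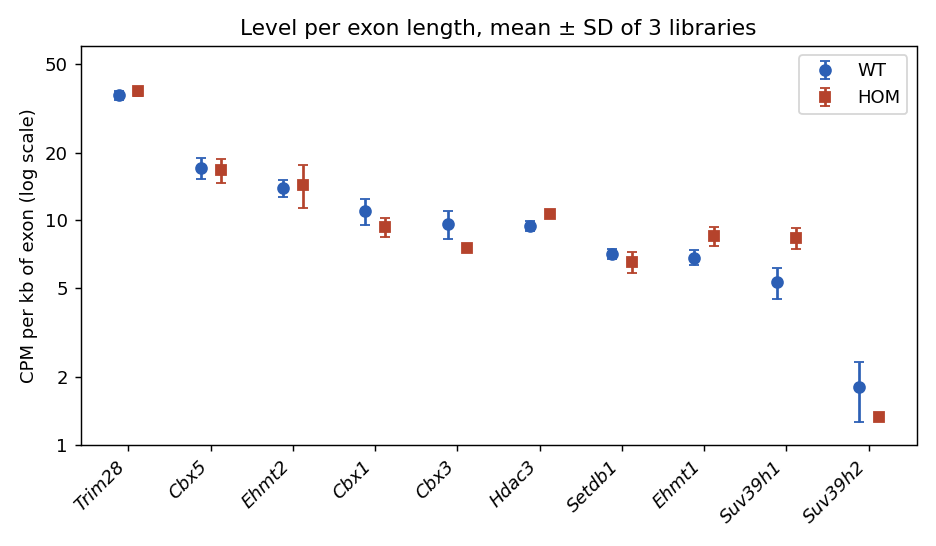
Level of each gene per kilobase of exon (log axis), as mean ± SD over 3 wild-type (blue circles) and 3 homozygous (red squares) libraries, ordered by the wild-type level. Levels ran from 36.1 for Trim28 to 1.81 CPM per kb for Suv39h2 in wild-type libraries.

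Between genotypes, 1 of the 10 genes passed the test: Suv39h1 rose in homozygous cells, and none fell. Over all genes tested, 9.67% were called higher and 11.5% lower, 21.1% in all, so the count among the 10 lay no higher than the background. The number at an unadjusted p under 0.05 was 3 of 10, against 35.9% of all genes tested, and DESeq2's Wald test and limma also called 1 gene. Values of the genotypes did not overlap for 5 of the 10 (Suv39h1, Ehmt1 and Hdac3 higher, Suv39h2 and Cbx3 lower in homozygous libraries), against 40.7% of all genes tested. The median log2 fold change was 0.009 over the 10 genes and -0.004 over all genes, and the median size of the change, without its sign, was 0.21 and 0.30. The 95% interval of the fold change lay between a halving and a doubling (within 2-fold in either direction) for all 10 genes, as it did for 69.0% of all genes tested. It lay within 1.5-fold for 7 of the 10, all but Suv39h1, Suv39h2 and Cbx3, and for 34.9% of all genes.

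**Figure D2:**
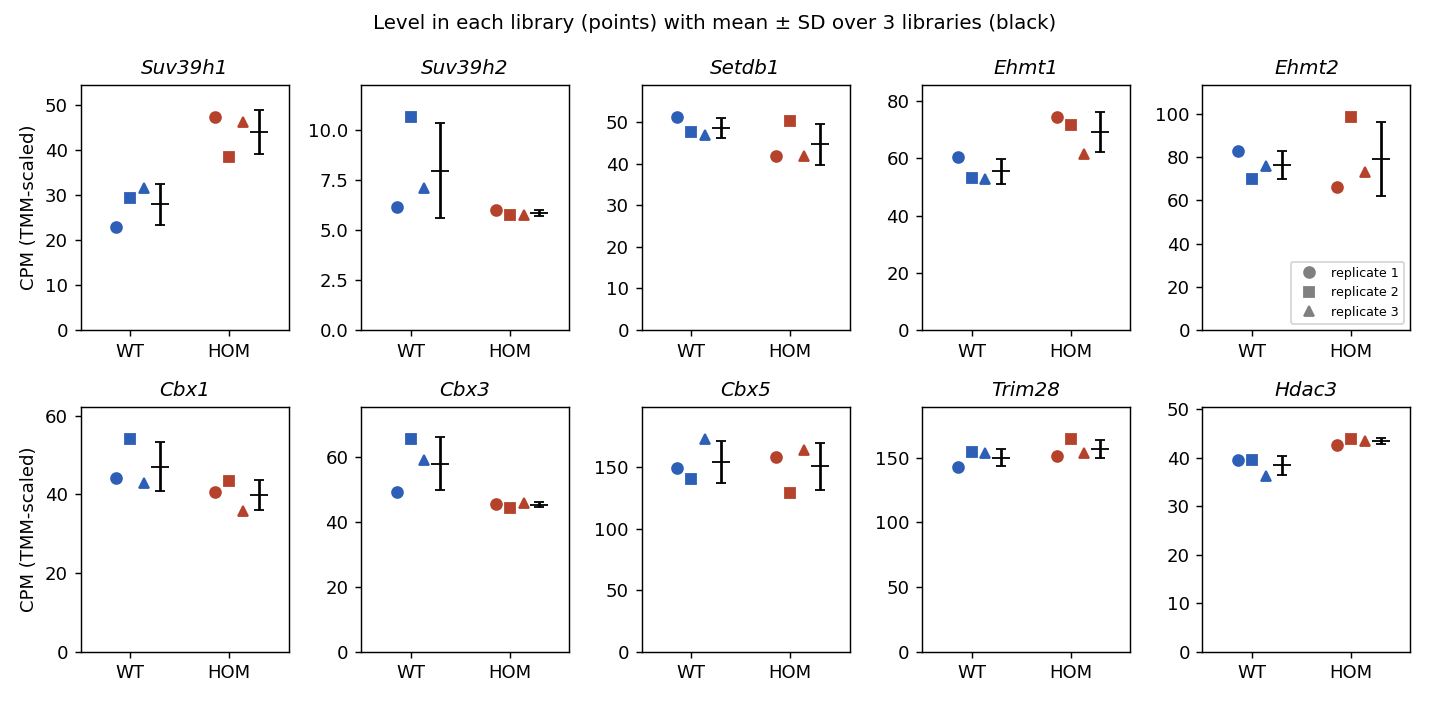
CPM of each gene in each library, with wild-type libraries in blue, homozygous libraries in red, 1 symbol per replicate number and the mean ± SD of 3 libraries in black. Suv39h1 was above 38 CPM in each homozygous library and below 32 CPM in each wild-type library, and wild-type replicate 2 gave the highest value of Suv39h2, Cbx1 and Cbx3.

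Suv39h1, on chromosome X (positions 8061171 to 8074760, minus strand, build GRCm38), stood at 47.4, 38.5 and 46.2 CPM in homozygous replicates 1, 2 and 3. In wild-type replicates 1, 2 and 3 it stood at 22.9, 29.3 and 31.6 CPM. All homozygous values were above all wild-type values. The means were 44.0 ± 4.84 and 27.9 ± 4.50 CPM (SD, n = 3), a fold of 1.58 (95% interval 1.25 to 1.99) and a log2 fold change of 0.66 (SE 0.15, edgeR adjusted p = 0.0141). The call rested on 339 to 363 reads in each homozygous and 184 to 249 in each wild-type library. It was lost without homozygous replicate 3 (log2 fold change 0.62, adjusted p = 0.0525) or wild-type replicate 1 (0.52, adjusted p = 0.0603), and it held without any other single library.

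Because Suv39h1 is X-linked, its values were also set out by the presence of Y-linked reads, of which homozygous replicate 2 and wild-type replicates 2 and 3 held 3074 to 4831 and the other libraries 0 to 3. Among those 3 libraries Suv39h1 was at 38.5 CPM in the homozygous library and at 29.3 and 31.6 CPM in the wild-type libraries. Among the other 3 libraries it was at 47.4 and 46.2 CPM in the homozygous libraries and at 22.9 CPM in the wild-type library. The homozygous level was the higher one in both sets, but each set held only 1 library of 1 of the genotypes. With a term for Y-linked reads in the model the log2 fold change was 0.68 (SE 0.18, edgeR adjusted p = 0.0301). Libraries with Y-linked reads were unevenly divided between genotypes, and their part in the size of the difference was not tested. A predicted gene on the other strand, Gm14820, overlaps 767 bases of the 5270 exonic bases of Suv39h1. It held 0 reads in the homozygous and 1 read in the wild-type group.

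Suv39h2, the second enzyme of this pair, lies on chromosome 2 (positions 3455815 to 3475031, minus strand). It stood at 6.01, 5.73 and 5.76 CPM in homozygous replicates 1, 2 and 3 and at 6.13, 10.7 and 7.11 CPM in wild-type replicates 1, 2 and 3. The groups did not overlap, but wild-type replicate 1 lay only just above the homozygous libraries and wild-type replicate 2 far above them. The gene did not pass the test (log2 fold change -0.44, SE 0.24, edgeR adjusted p = 0.226), with a fold between 0.51 and 1.08 in the 95% interval on 43 to 67 reads per library. The log2 fold change was -0.18 without wild-type replicate 2, which had the highest sum of proliferation genes. Mki67 was lower in each homozygous library than in the other wild-type libraries too. The sum of proliferation genes overlapped with them, at 359 to 423 CPM in homozygous libraries and 392 and 402 CPM in wild-type replicates 1 and 3. The part of proliferation genes in the difference of Suv39h2 was not tested. The end of the gene overlaps exons of Dclre1c, a DNA repair nuclease on the other strand, which did not pass the test either (log2 fold change 0.16, SE 0.18, adjusted p = 0.550).

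Suv39h2 was lower relative to Suv39h1 in each homozygous library than in each wild-type library. Per kilobase, Suv39h2 RNA was 0.153, 0.179 and 0.150 times Suv39h1 RNA in homozygous replicates 1, 2 and 3, and 0.322, 0.437 and 0.271 times in wild-type replicates 1, 2 and 3. Put as a share, Suv39h1 made up 86.3 ± 1.18% of the summed level per kilobase of the pair in homozygous and 74.8 ± 4.65% in wild-type libraries. A ratio within a library needs no scaling between libraries. The mean log2 ratio was lower by 1.07 in homozygous libraries (exact two-sided permutation test over 20 assignments of the 6 libraries, p = 0.1, the smallest this design allows, and 0.5 when adjusted over the 5 ratios compared). The difference was 0.88 to 1.23 on the log2 scale, in the same direction, with any 1 library left out. The summed level of the pair was 9.68 ± 0.94 CPM per kb in homozygous and 7.11 ± 1.20 CPM per kb in wild-type libraries.

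The promoters of this pair are shown because the genes encode related enzymes and their log2 fold changes had opposite signs, and that of Cbx3 because it is the HP1 gene with the largest difference. Each sequence is the 250 bases before a transcript start, 5′ to 3′ along the gene, from RefSeq on GRCm38.p6. Capitals mark the letters of a searched motif.

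Suv39h1 (chrX:8074761-8075010, minus strand): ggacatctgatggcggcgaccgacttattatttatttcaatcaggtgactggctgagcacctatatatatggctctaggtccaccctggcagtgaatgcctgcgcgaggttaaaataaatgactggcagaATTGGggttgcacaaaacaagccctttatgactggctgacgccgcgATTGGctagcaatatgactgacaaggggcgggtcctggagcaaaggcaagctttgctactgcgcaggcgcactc
Suv39h2 (chr2:3474987-3475236, minus strand): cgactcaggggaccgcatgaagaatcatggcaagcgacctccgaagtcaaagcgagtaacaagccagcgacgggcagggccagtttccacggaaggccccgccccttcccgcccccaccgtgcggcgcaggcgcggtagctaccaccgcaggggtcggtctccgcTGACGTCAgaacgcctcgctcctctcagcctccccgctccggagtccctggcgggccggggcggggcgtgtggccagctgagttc
Cbx3 (chr6:51470366-51470615, plus strand): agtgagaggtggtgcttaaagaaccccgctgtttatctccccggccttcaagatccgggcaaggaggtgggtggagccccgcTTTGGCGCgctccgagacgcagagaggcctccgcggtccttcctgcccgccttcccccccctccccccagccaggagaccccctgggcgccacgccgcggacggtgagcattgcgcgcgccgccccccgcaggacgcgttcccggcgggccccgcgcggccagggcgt

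Promoter motifs were searched as exact letters on both strands: the E2F sites TTTCGCGC and TTTGGCGC, the CCAAT box CCAAT, the CREB site TGACGTCA, the TATA box TATAAA and the palindromic NRF1 site. Of all 32817 RefSeq windows of this length, 0.256% hold TTTCGCGC, 12.4% the TATA box and 0.777% the NRF1 site, and none of these 3 was found in a window of the genes described here. The matches found did not overlap each other. The Suv39h1 window held CCAAT on the opposite strand (read as ATTGG) with matches starting 120 and 74 bases before the transcript start, and 33.8% of all windows hold that motif. The Suv39h2 window held TGACGTCA 85 bases before the start, as do 1.55% of windows somewhere in their length. The Cbx3 window held TTTGGCGC 168 bases before the start, a motif found in 0.417% of windows. That RefSeq start lies 256 bases past the annotated gene start of Cbx3 (51470360), so by that annotation the printed window is inside the gene. A further Cbx3 window and a further Suv39h1 window, each before a later start, held 0 matches. Beyond these, CCAAT was found in the windows of Setdb1 and Cbx5. In all, 9 of the 10 genes matched a RefSeq promoter, with 13 windows between them. These windows held 7 to 36 CpG dinucleotides, where the median of all windows was 6, and the Suv39h1 window printed here held 11, the Suv39h2 window 27 and the Cbx3 window 29. The further Suv39h1 window held 25. The matches are descriptions of the letters and not evidence of binding.

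Ehmt1 and Ehmt2, the subunits of the euchromatic dimethylase, did not pass the test. Ehmt1 (chromosome 2, positions 24789928 to 24919614, minus strand) stood at 74.5, 71.7 and 61.4 CPM in homozygous replicates 1, 2 and 3 and at 60.4, 53.1 and 52.8 CPM in wild-type replicates 1, 2 and 3. All homozygous values were above all wild-type values, by a narrow margin between homozygous replicate 3 and wild-type replicate 1. Ehmt1 had a log2 fold change of 0.32 (SE 0.12, edgeR adjusted p = 0.0819), with a 95% interval of 0.06 to 0.58. Ehmt2 (chromosome 17, positions 34898469 to 34914052, plus strand) stood at 66.0, 98.7 and 73.3 CPM in homozygous and at 83.1, 70.1 and 76.1 CPM in wild-type replicates 1, 2 and 3. Homozygous libraries held both its highest and its lowest value, and the log2 fold change was 0.06 (SE 0.15, adjusted p = 0.825). Its sign turned without homozygous replicate 2 (-0.14) and was at -0.001 without wild-type replicate 2. Per kilobase, Ehmt2 RNA was 1.31, 2.04 and 1.77 times Ehmt1 RNA in homozygous and 2.03, 1.95 and 2.13 times in wild-type replicates 1, 2 and 3 (exact two-sided permutation p = 0.3, adjusted p = 0.5 over the 5 ratios). Homozygous replicates 1 and 3 lay below the wild-type ratios and homozygous replicate 2 among them.

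Setdb1, the methyltransferase of retroelement silencing, and Trim28, its scaffold, overlapped between genotypes. Setdb1 (chromosome 3, positions 95323525 to 95357202, minus strand) stood at 42.0, 50.4 and 41.8 CPM in homozygous and at 51.3, 47.5 and 46.9 CPM in wild-type replicates 1, 2 and 3. Homozygous replicate 2 lay within the wild-type range and the other two below it, for a log2 fold change of -0.12 (SE 0.12, edgeR adjusted p = 0.515). Its exons overlap 324 bases of genes on the other strand, among them Cers2, a ceramide synthase gene with a log2 fold change of -0.04 (adjusted p = 0.804). Trim28 (chromosome 7, positions 12999114 to 13031035, plus strand) stood at 152, 165 and 154 CPM in homozygous and at 143, 154 and 154 CPM in wild-type replicates 1, 2 and 3. It had the narrowest interval of the 10 genes, with a fold between 0.89 and 1.23 (log2 fold change 0.06, SE 0.11, adjusted p = 0.712). Setdb1 and Trim28 kept their sign with any 1 library left out, at -0.22 to -0.07 and 0.02 to 0.09 on the log2 scale.

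None of the 3 HP1 genes passed the test. Cbx3 (chromosome 6, positions 51470360 to 51483704, plus strand), whose product HP1γ is found in euchromatin as well as heterochromatin, stood at 45.6, 44.3 and 45.8 CPM in homozygous replicates 1, 2 and 3. In wild-type replicates 1, 2 and 3 it stood at 49.2, 65.7 and 59.0 CPM, each above each homozygous value. The log2 fold change was -0.36 (SE 0.13, edgeR adjusted p = 0.0733), with a fold between 0.64 and 0.95 in the 95% interval. Cbx1 (chromosome 11, positions 96789127 to 96808640, plus strand) stood at 40.6, 43.4 and 35.7 CPM in homozygous and at 44.1, 54.2 and 43.0 CPM in wild-type libraries. The groups overlapped between homozygous replicate 2 and wild-type replicate 3 (log2 fold change -0.24, SE 0.135, adjusted p = 0.234). Both genes were highest in wild-type replicate 2, the library with the highest sum of proliferation genes, and without it their log2 fold changes were -0.26 and -0.13. The part of proliferation genes, 12 of which fell in homozygous libraries, in these differences was not tested. Cbx5 (chromosome 15, positions 103191544 to 103239816, minus strand), whose product HP1α is concentrated at pericentric heterochromatin, stood at 159, 129 and 164 CPM in homozygous and at 150, 140 and 173 CPM in wild-type libraries. The groups overlapped over most of their range (log2 fold change -0.04, SE 0.13, adjusted p = 0.869), and the sign became positive on omission of homozygous replicate 2 (0.06) or wild-type replicate 3 (0.05).

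Within the HP1 family, Cbx5 made up 49.7 ± 4.23% of the summed level per kilobase in homozygous and 45.4 ± 4.98% in wild-type libraries. Cbx1 made up 27.9 ± 3.72% and 29.1 ± 3.32%, and Cbx3 22.5 ± 0.65% and 25.5 ± 2.30%. The order of the 3 genes was the same in both genotypes. The summed level was 34.7, 31.9 and 34.2 CPM per kb in homozygous and 35.1, 39.2 and 39.2 CPM per kb in wild-type replicates 1, 2 and 3, so each homozygous sum was below each wild-type sum. Of the ratios, Cbx5 to Cbx3 was higher by 0.31 on the log2 scale in homozygous libraries (exact two-sided permutation p = 0.3), Cbx5 to Cbx1 by 0.20 (exact p = 0.5) and Cbx1 to Cbx3 by 0.11 (exact p = 0.5), all with an adjusted p of 0.5 over the 5 ratios.

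**Figure D3:**
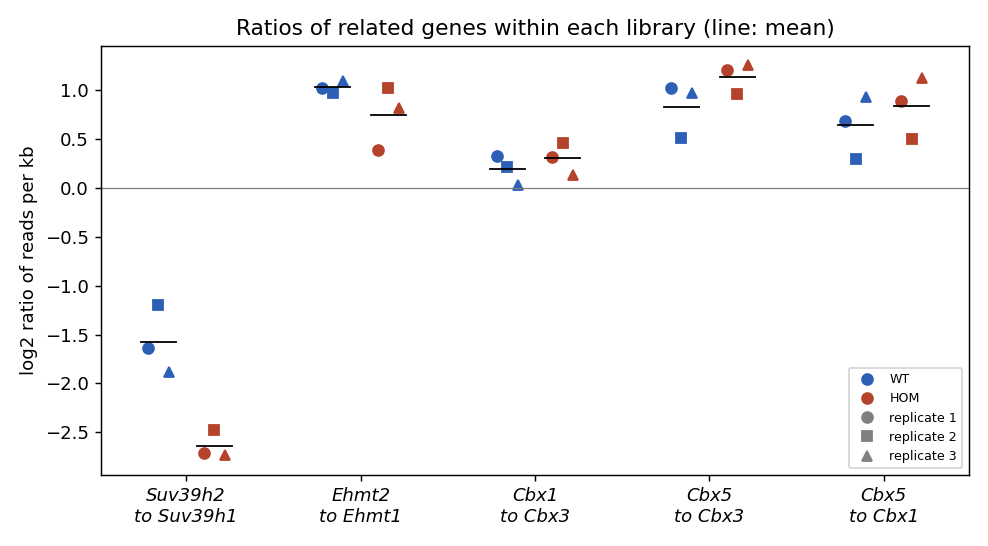
Log2 ratio of reads per kilobase for 5 pairs of related genes in each library, with wild-type in blue, homozygous in red and the group mean as a line. The genotypes separate for Suv39h2 to Suv39h1, at a mean of -1.57 in wild-type and -2.64 in homozygous libraries, and overlap for the other pairs.

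Cbx3 and Cbx5 each start beside a gene for an RNA-binding protein that is transcribed the other way. Hnrnpa2b1, whose annotated start lies 466 bases from that of Cbx3, stood at 908, 768 and 768 CPM in homozygous replicates 1, 2 and 3 and at 643, 607 and 786 CPM in the wild-type replicates. The groups overlapped, and the gene did not pass (edgeR adjusted p = 0.228 for a log2 fold change of 0.26, SE 0.15). Hnrnpa1, 616 bases from Cbx5, stood at 271, 262 and 210 CPM in homozygous replicates 1, 2 and 3 and at 327, 406 and 393 CPM in the wild-type replicates. It fell, with all homozygous values below all wild-type values (adjusted p = 0.0172 for a log2 fold change of -0.60, SE 0.14). Whether either HP1 gene differed from its neighbour in response was not tested. Other members had divergent neighbours too. C2, 204 bases from Ehmt2, had a log2 fold change of -0.68 (SE 0.25, edgeR adjusted p = 0.0785). Rell2, 63 bases from Hdac3, had one of 0.156 (SE 0.305, adjusted p = 0.746). Slc27a5, 922 bases from the annotated gene start of Trim28, was too low to test. The RefSeq start of Trim28 lies 25038 bases past that gene start.

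Hdac3 (chromosome 18, positions 37935844 to 37955016, minus strand) had the smallest SD relative to its mean of the 10 genes in homozygous libraries. It stood at 42.7, 43.9 and 43.5 CPM there and at 39.6, 39.4 and 36.2 CPM in wild-type replicates 1, 2 and 3. All homozygous values were above all wild-type values, but the difference was small, with a fold of 1.13 (95% interval 0.95 to 1.34, log2 fold change 0.18, SE 0.11, edgeR adjusted p = 0.280).

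**Figure D4:**
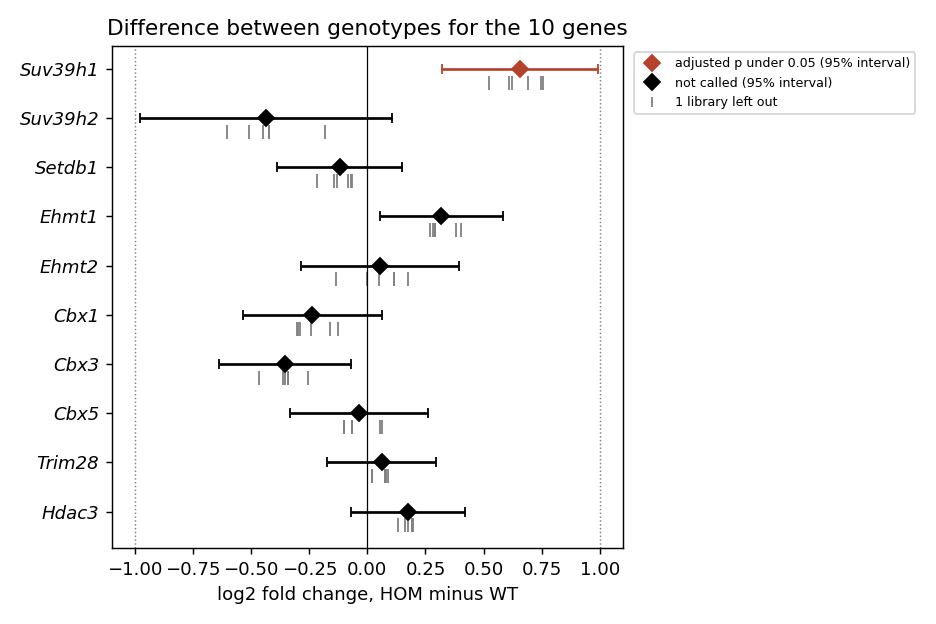
Log2 fold change (homozygous minus wild type) of each gene as a diamond with its 95% interval, red where the adjusted p was under 0.05, and grey ticks for the fits without 1 library. Dotted lines mark a 2-fold change, and all 10 intervals lie between them.

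The wider pathway was described by 5 lists with 59 genes, of which 56 were tested, 5 rose and 2 fell. This is 7 called genes, a smaller share than the 21.1% of all genes tested, with a median log2 fold change of 0.05. The count depended on single libraries. Omission of homozygous replicate 1 left 0 called, of replicate 2 gave 12 and of replicate 3 left 1. Omission of wild-type replicates 1, 2 or 3 left 2, 1 or 4. With a term for Y-linked reads in the model it was 1.

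Among 18 partners and readers of HP1 and H3K9 methylation, 3 rose and 0 fell, where 9.67% of all genes tested rose and 11.5% fell. The number that rose was 0 with the Y-linked term, and also 0 when replicate 1 of either genotype or wild-type replicate 2 was omitted. It was 1 on omission of homozygous replicate 3. Lrif1, which binds HP1 and the protein Smchd1, rose from 16.9 ± 1.70 to 27.6 ± 5.23 CPM (edgeR adjusted p = 0.0175 for a log2 fold change of 0.70, SE 0.17). Morc2a, an ATPase that works with the HUSH silencing complex, rose from 54.6 ± 7.66 to 80.4 ± 14.6 CPM (adjusted p = 0.0298 for a log2 fold change of 0.55, SE 0.15). Lbr, the inner nuclear membrane receptor that binds lamin B and HP1, rose from 115 ± 8.83 to 158 ± 26.5 CPM (adjusted p = 0.0396 for a log2 fold change of 0.46, SE 0.14). For each of these 3 genes the homozygous libraries lay above the wild-type libraries. Exons of Lrif1 overlap Gm38253 on the same strand, those of Lbr overlap Dnah14 and those of Morc2a overlap Tug1, so their counts are uncertain to that extent.

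Among 10 tested H3K9 demethylases, 1 rose and 1 fell, a share close to the 21.1% called among all genes tested. Kdm3b rose from 68.0 ± 6.92 to 91.3 ± 4.87 CPM (edgeR adjusted p = 0.0262 for a log2 fold change of 0.42, SE 0.11), and 3468 of its annotated exonic bases are shared with Gm26538 on the other strand. Jmjd1c, of the same family, fell from 622 ± 91.4 to 424 ± 26.4 CPM (adjusted p = 0.0217 for a log2 fold change of -0.55, SE 0.14). Kdm3b was called in only 1 of the 6 fits that left out a library, the one without homozygous replicate 2, and Jmjd1c lost its call without homozygous replicates 1 or 3 or wild-type replicate 3. None of 9 other tested writers and cofactors passed by edgeR, while 3 had an unadjusted p under 0.05, against 35.9% of all genes tested. In 5 of 15 alternatives, including DESeq2's Wald test, 1 of these writers and cofactors was called higher. The most abundant of them were Zfp644, a zinc-finger partner of G9a and GLP, at 310 ± 34.3 and 252 ± 21.1 CPM in homozygous and wild-type libraries (adjusted p = 0.127), and Atf7ip, which stabilises Setdb1, at 99.8 ± 9.92 and 86.6 ± 8.86 CPM (adjusted p = 0.258).

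Of 11 tested partners of Trim28, 0 rose and 1 fell, where 9.67% of all genes tested rose and 11.5% fell. Zfp568, a KRAB zinc-finger protein that recruits Trim28 to an Igf2 promoter, stood at 41.5, 78.7 and 43.6 CPM in homozygous and at 114, 96.8 and 90.9 CPM in wild-type replicates 1, 2 and 3 (log2 fold change -0.87, SE 0.22, edgeR adjusted p = 0.0207). Homozygous replicate 2 lay nearest to the wild-type libraries, and the log2 fold change was -1.24 without it. The call was lost without homozygous replicate 1 (-0.71, adjusted p = 0.0730) or 3 (-0.73, adjusted p = 0.0747) and without wild-type replicate 1 (-0.78, adjusted p = 0.0793) or 2 (-0.90, adjusted p = 0.0555). Of 8 genes of the Hdac3 corepressor complex and the class I deacetylases, 1 rose and 0 fell, beside the same shares of all genes. The gene that rose was Hdac8, from 7.36 ± 1.74 to 11.8 ± 1.05 CPM (edgeR adjusted p = 0.0455 for a log2 fold change of 0.67, SE 0.21). With DESeq2's Wald test Hdac8 had an adjusted p of 0.0670, and with library totals in place of TMM factors one of 0.0510. With 1 library left out it was called only without wild-type replicate 1.

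**Figure D5:**
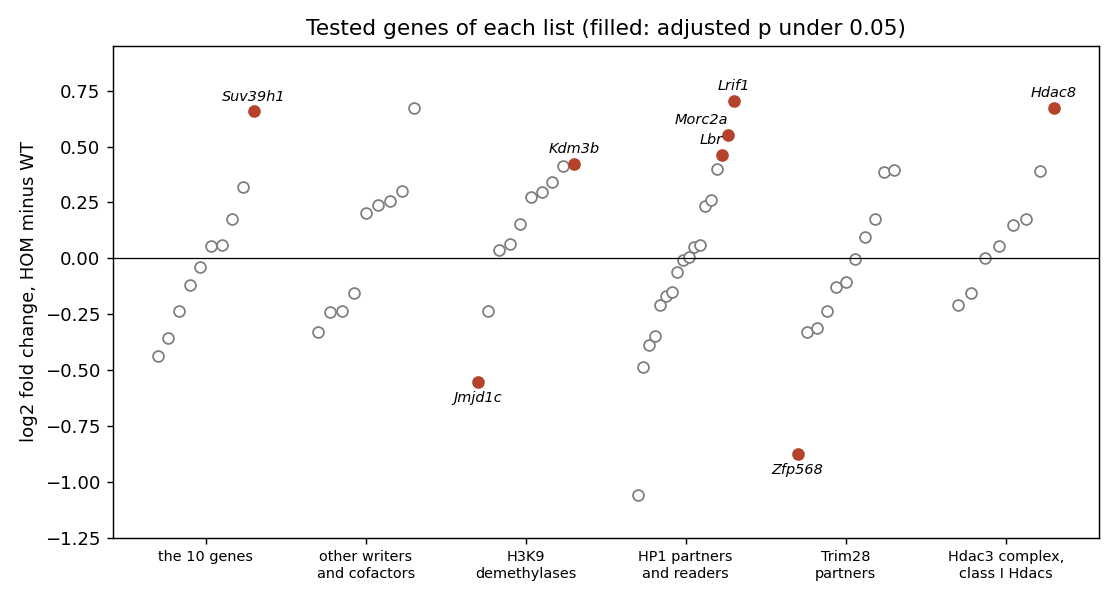
Log2 fold change (homozygous minus wild type) of each tested gene, in 6 columns for the 10 genes and the 5 pathway lists, sorted within a column. Filled red points passed the test at an adjusted p under 0.05: Suv39h1 and 7 genes of the lists.

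Germline and early-embryo genes that H3K9 methylation is known to help silence in somatic cells were nearly unread in both genotypes. Of 17 such genes, 16 were too low to test, and together these held 31 reads in the 3 homozygous and 20 reads in the 3 wild-type libraries. Brdt, a testis bromodomain protein, was the only one tested, at 6.34 ± 1.31 and 5.84 ± 0.23 CPM (edgeR adjusted p = 0.739 for a log2 fold change of 0.12, SE 0.23). A difference in the other 16 was not detectable at this depth, and transcripts of retroelements, whose reads mostly align to several places, were not counted per element in the files used here.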

How the data were processed

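For each library the authors deposited a table of unnormalised counts by Ensembl gene. Per the labels' protocols, total RNA was depleted of ribosomal RNA and made into stranded libraries. The submitters' processing notes list mm10, HTSeq 0.6.1, STAR 2.5.2b and Trimmomatic 0.32. What each tool did, how strand was set and which annotation was used is not given in these sources. Summary lines (45.0 to 49.8% of a file's reads) were left out. GENCODE M21 supplied symbols, positions and exon lengths for 38861 of 39059 genes.

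Counts were tested in R 4.3.3 with edgeR 4.0.16: filterByExpr (minimum count 10, total 15), TMM factors, the quasi-likelihood test without covariates, and Benjamini-Hochberg adjustment over 14099 genes at 0.05. SE is the log2 fold change divided by the square root of F. Intervals use that SE and the fit's degrees of freedom. Ratios of related genes had 0.5 reads added to each count and an exact permutation test. On counts simulated from these libraries, with 200 of 13942 genes changed, recovery was 75.0% at 2-fold and 100.0% at 4-fold, and 6.91% of calls were false. The simulation gave all genes a common dispersion and changed few of them. Its rates therefore do not carry over to the real calls or to smaller folds.

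Within a genotype no pair of libraries agreed within sampling noise (chi-square of 9.16 to 25.1 per gene). Groups were taken from sample titles. The members and lists were chosen with earlier results of these data known. Named genes are the 10, Lmna, and from each other list up to 4 called genes in order of p, or, in lists with no call, the 2 of highest mean. Hnrnpa2b1, Hnrnpa1, C2, Rell2 and Slc27a5 were named as divergent neighbours after the data were seen. Alternatives were DESeq2 size factors, library totals, DESeq2 1.42.0, limma 3.58.1 with voom, 2 other filters, a replicate block, a term for Y-linked reads, and leaving out libraries.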

Additional observations from a re-analysis of the deposited data

How the results depend on the processing

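Over all 15 alternatives the log2 fold change of Suv39h1 was 0.52 to 0.78. Its call held in 13 of them and was lost without homozygous replicate 3 or wild-type replicate 1. The number of the 10 genes called was thus 0 to 1 with 1 library left out. No other member was called under any of the 15. Ehmt2 and Cbx5 changed sign when single libraries were left out, at -0.14 to 0.18 and -0.100 to 0.062, and Ehmt2 was at -0.20 when the replicate numbered 2 of both genotypes was omitted, both rich in Gm42418, a predicted gene that overlaps ribosomal RNA. Over all genes, 2980 were called, 1363 higher and 1617 lower. With a term for Y-linked reads, 1932 were called, 793 of them higher. With 1 library left out, 1576 to 4002 were called, 655 to 1764 higher and 881 to 2238 lower. Of the 5 pathway lists, 7 genes were called, against 11 with no filter on low counts, 4 with the replicate block, 1 with the Y-linked term, 13 when those 2 were omitted and 0 to 12 with 1 library left out. The cause of these differences was not tested. The 5 ratios kept their direction in each of 8 alternatives. Replicate numbers are not said to pair the libraries. Deviations of same-numbered libraries from their group means correlated at -0.255, 0.0647 and -0.136, and no homozygous library correlated best with its own number. With 3 libraries per genotype these correlations cannot show whether libraries were paired, and those numbered 2 shared the high level of Gm42418. With the replicate block Suv39h1 had a log2 fold change of 0.66 (adjusted p = 0.0232), 2437 genes were called in all, and Kdm3b, Lbr and Hdac8 were no longer called (adjusted p = 0.0609, 0.0768 and 0.0565). Suv39h2, with 43 to 67 reads per library, is the member that depth limits most.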
